A study of Homo sapiens with 12 samples.

Results

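The 50 genes described here encode proteins that carry a human cell through G2 and mitosis: cyclins and their kinase, spindle motors, kinetochore and checkpoint proteins, the chromosomal passenger complex, chromosome scaffold proteins and the machinery of cytokinesis. They were taken by symbol from a list of named genes. The rule uses no measured value, but the list was drawn up with earlier results of these data known. They make up 50 of the 44700 gene rows of the count table. All 50 passed the filter on low counts and were tested. Their levels were measured by RNA sequencing in 2 established human melanoma cell lines labelled as wild type, SK-MEL-5 and MALME-3M. Each line was either left untreated or given interferon-γ (IFN-γ) for 24 h from the time of seeding, with MALME-3M receiving 200 ng/mL and SK-MEL-5 150 ng/mL. There were 3 libraries in each of the 4 groups, 12 in all, and replicate numbers only name them. The lines also differed in culture medium, with more serum for MALME-3M, so line, dose and medium cannot be told apart in any comparison between the lines. The labels speak of triplicate wells and not of separate experiments, so the p-values reflect how far these libraries spread, and that spread may be technical only.

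Each library held between 15514412 and 22921184 counts in genes. For each such count, the summary lines held 7.47 to 13.731 alignments marked as not unique and 0.5325 to 0.8498 marked as in no gene. These were not counted in genes, and their part in the results below was not tested. All 10 IFN-γ response genes used as a check of the treatment labels rose in both lines. The 6 melanocytic markers examined had counts in every group and summed to between 5060 and 5730 counts per 1000000 (CPM) per library. The 8 fibroblast markers summed to 162 to 189 CPM in untreated and 130 to 135 CPM in treated SK-MEL-5, against 18.3 to 19.5 and 15.2 to 17.8 CPM in MALME-3M. The 6 immune markers never summed to more than 1.37 CPM. The 4 epithelial markers summed to 395 to 396 CPM in untreated and 316 to 359 CPM in treated MALME-3M, and to at most 10.3 CPM in SK-MEL-5. The part of these other markers in the results below was not tested.

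Entry into mitosis is driven by CDK1 bound to cyclin A and cyclin B, which polo-like kinase 1 and the CDC25 phosphatases help to switch on. Spindle motors and microtubule-binding proteins then align the chromosomes. The spindle checkpoint holds the anaphase-promoting complex in check until every kinetochore is attached. Most of these genes are transcribed in a wave late in the cell cycle. The DREAM complex holds them down in resting cells, and MYB-MuvB with FOXM1 activates them in G2. They act through a promoter element called the cell-cycle genes homology region, searched here only as the letters TTTGAA. The trimeric factor NF-Y binds CCAAT boxes that often lie upstream of it. In bulk RNA, fewer cells in G2 and mitosis and less of each transcript per cell cannot be told apart.

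Promoter windows from RefSeq (assembly GRCh38.p14), running from 250 bases before to 50 bases after the annotated start, were matched for 43 of the 50 genes. They show what the genes have in common apart from their function. TTTGAA, searched on both strands, was found in the windows of 31 of the 43 genes (72.1%), against 9.82% of the 10326 tested genes that have such a window. CCAAT, also on both strands, was found in 32 (74.4%, against 36.6%), and both in 25 (58.1%, against 4.14%). Of the 43, 17 had TTTGAA starting between 40 and 10 bases before the start (39.5%, against 0.881%), and 20 had at least 2 CCAAT matches (46.5%, against 13.7%). The letter matches are a description of these windows and do not show that a factor binds there. Other forms of the 2 elements were not searched, so a window without a match may still hold the element. A window may also lie away from the start used in these cells, which was not tested. For TACC3, on chromosome 4, the last base before the RefSeq start is 1720630, whereas the GENCODE annotation begins the gene at 1721490.

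The 130 bases before the start are given below for 6 genes that span the range of arrangements and of responses. CCNB2 had the largest fall that passed the test in MALME-3M. PLK1 and MKI67 have both sets of letters, and KIF20A has CCAAT without TTTGAA. INCENP has both sets of letters and no fall in either line, and CDC25B has neither set. Capitals mark TTTGAA and CCAAT, or TTCAAA and ATTGG where the match is on the other strand. Each sequence reads 5′ to 3′ in the direction of transcription and the last base is the one before the start.
CCNB2, chr15:59105016-59105145, plus strand: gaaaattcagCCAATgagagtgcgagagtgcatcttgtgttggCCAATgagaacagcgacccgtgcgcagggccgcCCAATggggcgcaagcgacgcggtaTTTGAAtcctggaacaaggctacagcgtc
PLK1, chr16:23678759-23678888, plus strand: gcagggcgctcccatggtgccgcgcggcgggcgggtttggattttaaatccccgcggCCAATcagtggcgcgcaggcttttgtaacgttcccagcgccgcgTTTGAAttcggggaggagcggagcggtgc
MKI67, chr10:128126424-128126553, minus strand: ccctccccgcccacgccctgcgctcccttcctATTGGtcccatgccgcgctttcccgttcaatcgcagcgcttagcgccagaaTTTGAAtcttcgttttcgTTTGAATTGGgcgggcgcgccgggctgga
KIF20A, chr5:138178982-138179111, plus strand: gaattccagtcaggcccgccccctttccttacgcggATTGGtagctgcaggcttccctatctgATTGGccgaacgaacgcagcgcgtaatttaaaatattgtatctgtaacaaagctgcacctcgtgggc
INCENP, chr11:62123881-62124010, plus strand: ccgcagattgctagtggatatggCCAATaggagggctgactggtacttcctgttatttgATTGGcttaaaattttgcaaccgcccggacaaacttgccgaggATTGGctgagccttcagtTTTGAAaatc
CDC25B, chr20:3786821-3786950, plus strand: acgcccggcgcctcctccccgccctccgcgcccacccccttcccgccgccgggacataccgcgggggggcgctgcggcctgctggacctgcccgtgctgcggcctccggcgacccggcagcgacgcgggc

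CCNB2 has CCAAT letters 3 times in its printed stretch, followed by a single TTTGAA, and MKI67 has TTTGAA at a pair of positions, the second of which shares a base with an ATTGG. In PLK1 a single CCAAT precedes TTTGAA. The stretch of KIF20A holds ATTGG and no TTTGAA, and that of INCENP has a CCAAT, then ATTGG, and TTTGAA close to the start. In MALME-3M, 23 of the 31 genes with TTTGAA were lower with IFN-γ at an adjusted p below 0.05 (8.77% of all genes tested were), with a median log2 change of -0.23, and so did 8 of the 12 without it, with a median of -0.22. The medians with and without the letters are given as a description, with no test. The genes without the letters may include some whose window misses the element or the start in use.

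**Figure D1:**
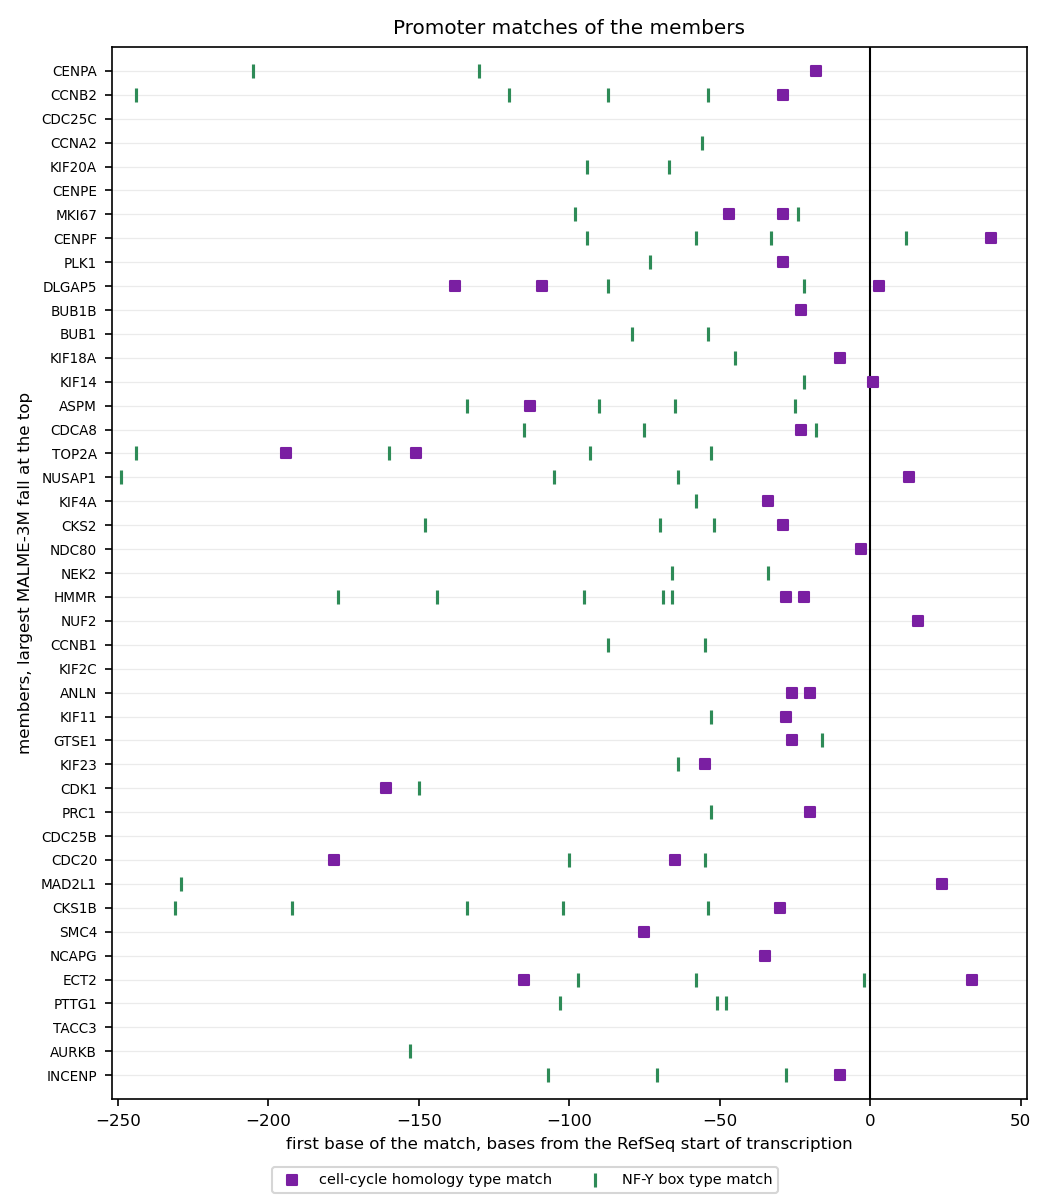
Positions of letter matches in the promoter windows of the 43 genes with a RefSeq window, 1 row per gene, ordered by the log2 change with IFN-γ in MALME-3M with the lowest at the top. The x axis is the distance in bases from the RefSeq start to the first base of the match, purple squares are TTTGAA and green ticks CCAAT on either strand. In 17 genes a purple square lies between 40 and 10 bases before the start. The rows with no mark include CDC25C near the top and TACC3 near the bottom. An empty row does not show that the gene lacks the elements.

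The 50 genes together took 1.03% to 1.05% of the gene counts in untreated MALME-3M and 0.862% to 0.882% in treated MALME-3M, ranges that do not overlap. In SK-MEL-5 the shares were 1.01% to 1.04% untreated and 0.963% to 0.990% treated, which do not overlap either. Their summed level was 10240 ± 197 CPM (SD, n = 3) in untreated and 8711 ± 252 CPM in treated MALME-3M, and 10330 ± 215 and 9868 ± 135 CPM in SK-MEL-5. MKI67, CENPF and TOP2A supplied 32.9% of all counts of the 50 genes, so these sums lean on them.

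**Figure D2:**
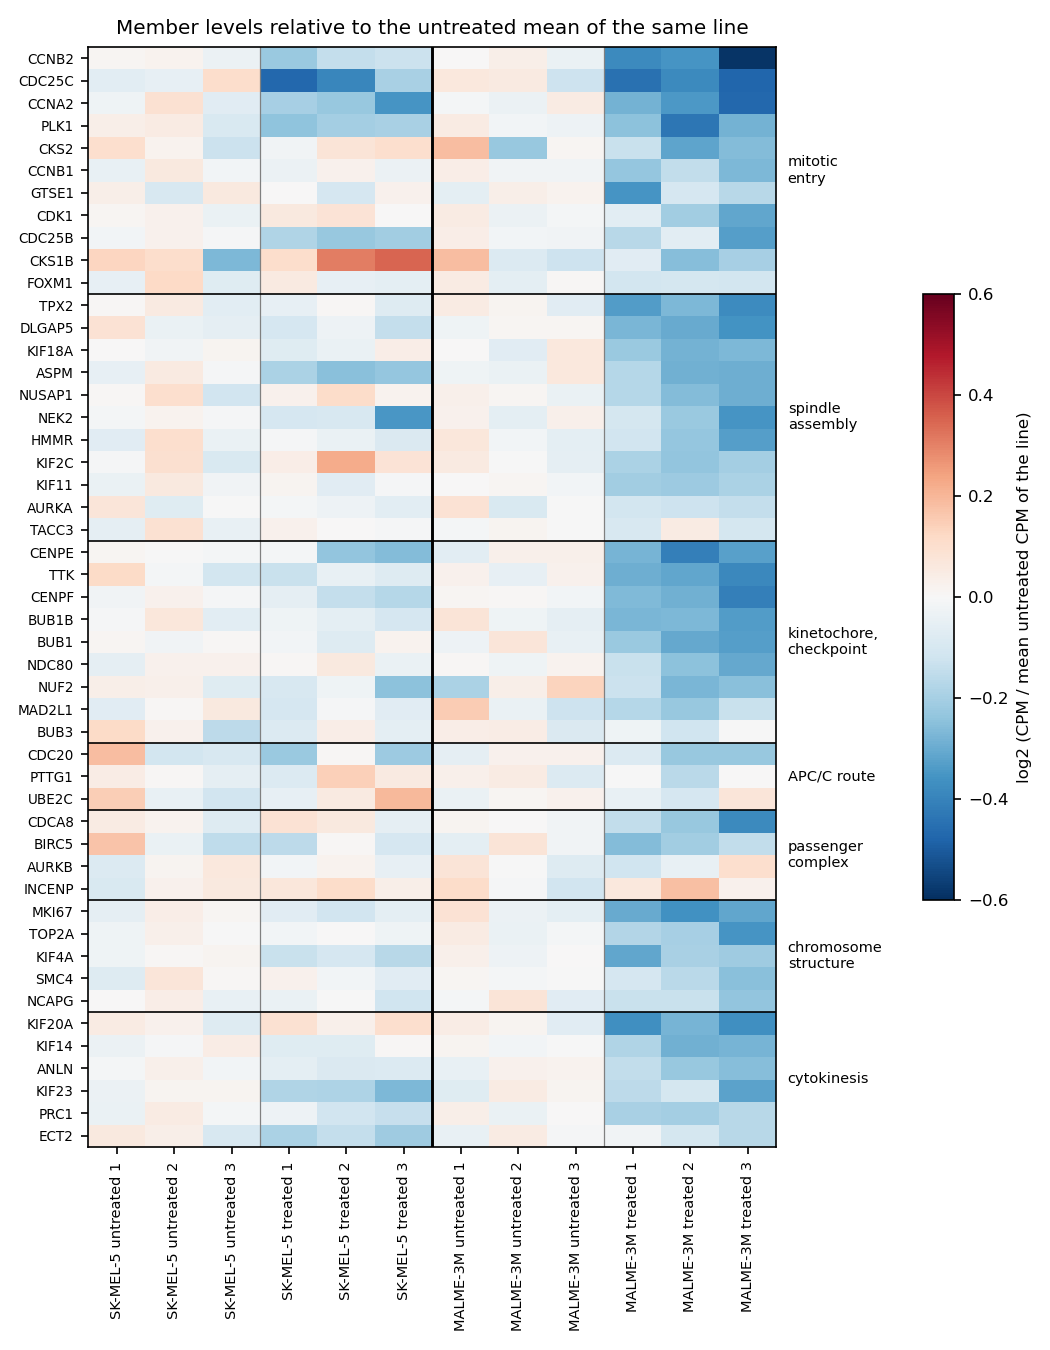
Level of 49 of the 50 genes in each of the 12 libraries, as the log2 ratio of the CPM to the mean untreated CPM of the same line, with genes in rows grouped by role and libraries in columns. CENPA, at about 1 CPM, is left out. The 3 treated MALME-3M columns are blue in nearly every row, while the 3 treated SK-MEL-5 columns are pale apart from rows such as CCNA2, PLK1 and ASPM.

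Most of the mitotic genes were lower after IFN-γ in MALME-3M. Of the 50 genes, 33 were lower with an adjusted p below 0.05 (edgeR's quasi-likelihood test, Benjamini-Hochberg adjustment over all 15810 genes tested), and 0 were higher, where 8.77% of all genes tested were lower and 9.51% higher. By an unadjusted p below 0.05, 39 were lower and 0 higher, and no share of all genes was counted at that threshold. DESeq2 called 38 lower and 0 higher, where it called 1665 lower and 1386 higher of the 34075 genes it fitted. The share by edgeR was 66.0% of the 50 genes, and it was 12.7% among the 9761 tested genes at or above 7.94 CPM, the level of the lowest of 49 of them. The fold change was below 0 for 49 of the 50, against 49% of all genes, and INCENP was the exception. In 39 genes every treated library lay below every untreated one, against 16.5% of all genes tested. The median log2 change was -0.22 for the 50 genes and 0.001 for all genes tested. The changes that passed lay between -26.2% and -10.9%.

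The mitotic entry genes had 8 of 11 lower in MALME-3M. CCNB2, a cyclin B that activates CDK1, had 130.3, 133 and 127 CPM in the untreated and 99.9, 102 and 86.6 CPM in the treated libraries, and fell by 26.2% (log2 change -0.44 ± 0.059 SE, adjusted p = 2.48e-05). CCNA2, the cyclin A partner of CDK2 and CDK1, went from 74.2, 72.9 and 77.4 to 61.4, 59.0 and 54.0 CPM (log2 change -0.36 ± 0.061, adjusted p = 0.000256). PLK1, the kinase that promotes mitotic entry and spindle assembly, went from 46.3, 44.2 and 43.8 to 37.8, 33.2 and 36.8 CPM (-0.32 ± 0.059, adjusted p = 0.000732). In all of these the treated libraries lay below every untreated one. CDC25B, a phosphatase that activates CDK1, had 354, 341 and 340.0 CPM untreated and 307, 330.3 and 275 CPM treated, also without overlap (-0.18 ± 0.054, adjusted p = 0.0231). CDK1 itself, CCNB1, CDC25C and the microtubule-binding GTSE1 also passed, with log2 changes from -0.43 for CDC25C to -0.19 for CDK1. FOXM1, the activator of this gene wave, had a log2 change of -0.11 ± 0.055 that did not pass (adjusted p = 0.208), nor did those of CKS1B and CKS2, the small subunits that bind CDKs, at -0.17 and -0.24.

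Of the spindle genes, 8 of 11 were lower. TPX2, which targets Aurora A to the spindle and nucleates microtubules, had 448, 438 and 413 CPM untreated and 343, 359 and 333 CPM treated (-0.33 ± 0.047, adjusted p = 5.34e-05). ASPM, a spindle pole protein, went from 181, 179 and 193 to 164, 151 and 151 CPM (-0.25 ± 0.050, adjusted p = 0.0013). NUSAP1, which binds and bundles spindle microtubules, went from 245, 242 and 233 to 213, 201 and 196 CPM (-0.24 ± 0.055, adjusted p = 0.00435). None of these ranges overlapped. The microtubule depolymerase KIF2C went from 109, 105 and 101 to 91.7, 88.9 and 90.8 CPM (-0.21 ± 0.060, adjusted p = 0.0195). The motors KIF11 and KIF18A and the microtubule-binding proteins HMMR and DLGAP5 also fell, with log2 changes between -0.31 and -0.20. TACC3, a spindle protein, showed overlapping ranges of 85.7, 87.4 and 86.4 CPM untreated and 81.0, 89.4 and 80.3 CPM treated (-0.05 ± 0.056, adjusted p = 0.62), and the kinases AURKA (-0.12) and NEK2 (-0.23) did not pass either.

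At the kinetochore and in the checkpoint, 6 of 10 genes were lower. CENPF, a large kinetochore protein and the second most abundant of the 50 genes by CPM, had 1196, 1191 and 1173 CPM untreated and 989.5, 971 and 893 CPM treated (-0.32 ± 0.044, adjusted p = 3.53e-05). BUB1, a checkpoint kinase, went from 148, 159 and 147 to 129, 122 and 120.1 CPM (-0.29 ± 0.051, adjusted p = 0.00045). Both genes had treated libraries below all untreated ones. The checkpoint kinase TTK, the checkpoint protein BUB1B, the kinetochore motor CENPE and the microtubule anchor NDC80 passed with log2 changes between -0.34 and -0.23. BUB3, MAD2L1, NUF2 and CENPA did not pass, at -0.05, -0.18, -0.22 and -0.61 ± 0.43. CENPA, the centromeric histone H3 variant, had 291 counts over the 12 libraries, the fewest of the 50.

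Of the 3 genes of the anaphase-promoting complex route, 0 passed edgeR's or DESeq2's test in MALME-3M, with 0 lower and 0 higher at an unadjusted p below 0.05. CDC20, which activates the complex, had 28.4, 29.9 and 29.9 CPM untreated and 27.8, 25.2 and 25.1 CPM treated (-0.18 ± 0.090, adjusted p = 0.2). UBE2C, its ubiquitin-conjugating enzyme, had 49.3, 51.0 and 51.6 CPM untreated and 49.1, 47.3 and 53.2 CPM treated (-0.02 ± 0.076, adjusted p = 0.892). PTTG1, or securin, which the complex destroys at anaphase, had 42.0, 42.7 and 38.9 CPM untreated and 41.1, 36.8 and 41.3 CPM treated (-0.05 ± 0.070, adjusted p = 0.683). The CDC20 ranges did not overlap, whereas those of UBE2C and PTTG1 did. Each of these 3 genes is below the median level of the genes that fell (144 CPM over the 12 libraries). Genes that did fall lie below it too, such as TTK (51.9 CPM), KIF18A (41.9 CPM) and CDC25C (7.94 CPM). Whether the 3 genes of this route respond differently from the other genes was not tested.

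Of the chromosomal passenger complex, 1 of 4 genes passed. CDCA8 (borealin) went from 56.8, 56.1 and 55.4 to 50.6, 47.9 and 43.1 CPM (-0.25 ± 0.062, adjusted p = 0.00807). BIRC5 (survivin) had 89.7, 98.4 and 91.9 CPM untreated and 77.8, 80.8 and 84.2 CPM treated without overlap, and missed the threshold (-0.20 ± 0.071, adjusted p = 0.0524; it passed under 10 of 20 alternative settings, with adjusted p from 0.00797 to 0.197). INCENP, the scaffold of the complex, had 397, 367 and 341 CPM untreated and 385, 417 and 375 CPM treated, and was the only one of the 50 with a change above 0 (0.09 ± 0.058, adjusted p = 0.328). AURKB, its kinase, had a log2 change of -0.02 ± 0.062 (adjusted p = 0.896).

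All 5 chromosome structure genes fell. MKI67, whose product (Ki-67) coats mitotic chromosomes and marks dividing cells, had 1615, 1484 and 1460.0 CPM untreated and 1233, 1183 and 1225 CPM treated, and fell by 20.2% (-0.33 ± 0.044, adjusted p = 2.61e-05). KIF4A, a chromosome-bound motor, went from 131, 126 and 128 to 103, 112 and 111 CPM (-0.24 ± 0.048, adjusted p = 0.00156). Neither gene's ranges overlapped. TOP2A, the DNA topoisomerase of mitotic chromosomes, and the condensin subunits SMC4 and NCAPG fell with log2 changes of -0.24, -0.17 and -0.17.

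Cytokinesis genes had 5 of 6 lower. KIF20A, a motor that moves the passenger complex to the central spindle, went from 86.8, 85.1 and 80.3 to 65.1, 69.4 and 65.1 CPM and fell by 20.9% (-0.34 ± 0.054, adjusted p = 0.000174). ANLN (anillin), a scaffold of the contractile ring, went from 366, 384 and 383 to 341, 323 and 317 CPM (-0.21 ± 0.043, adjusted p = 0.00171). PRC1, which bundles midzone microtubules, went from 295, 279 and 288 to 251, 249.6 and 256 CPM (-0.19 ± 0.045, adjusted p = 0.00614). In these 3 genes, too, the treated libraries lay below all untreated ones. KIF23, the motor of centralspindlin, had 195, 213 and 208 CPM untreated and 184, 191 and 164 CPM treated (-0.19 ± 0.055, adjusted p = 0.0197), also without overlap, and the motor KIF14 fell by 0.25 on the log2 scale. ECT2, which activates the RhoA switch of the contractile ring, had overlapping ranges of 145, 154 and 149 CPM untreated and 147, 139 and 133 CPM treated (-0.10 ± 0.055, adjusted p = 0.261).

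The 17 genes that did not pass in MALME-3M had lower levels than the 33 that did, with a median of 71.1 against 144 CPM, and a larger median SE, 0.0696 against 0.054. Their median log2 change was also smaller in size, -0.125 against -0.25. Why they did not pass was not tested. With transcript-level estimates in place of gene counts, 12 of the 50 passed in MALME-3M, all lower, where 415 of 13497 genes were lower and 527 higher. Leaving out any 1 library gave 28 to 35. Of the genes printed by library, PLK1, BUB1, CDCA8, KIF4A, PRC1 and ANLN lost the call with transcript-level estimates only. CDC25B lost it there and without replicates 1 or 2 of untreated or replicate 3 of treated MALME-3M (adjusted p up to 0.0886 without a library). KIF2C lost it there and without replicates 1 or 2 of untreated or replicate 2 of treated MALME-3M (up to 0.0916), and KIF23 there and without replicates 2 or 3 of untreated or replicate 3 of treated MALME-3M (up to 0.094).

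**Figure D3:**
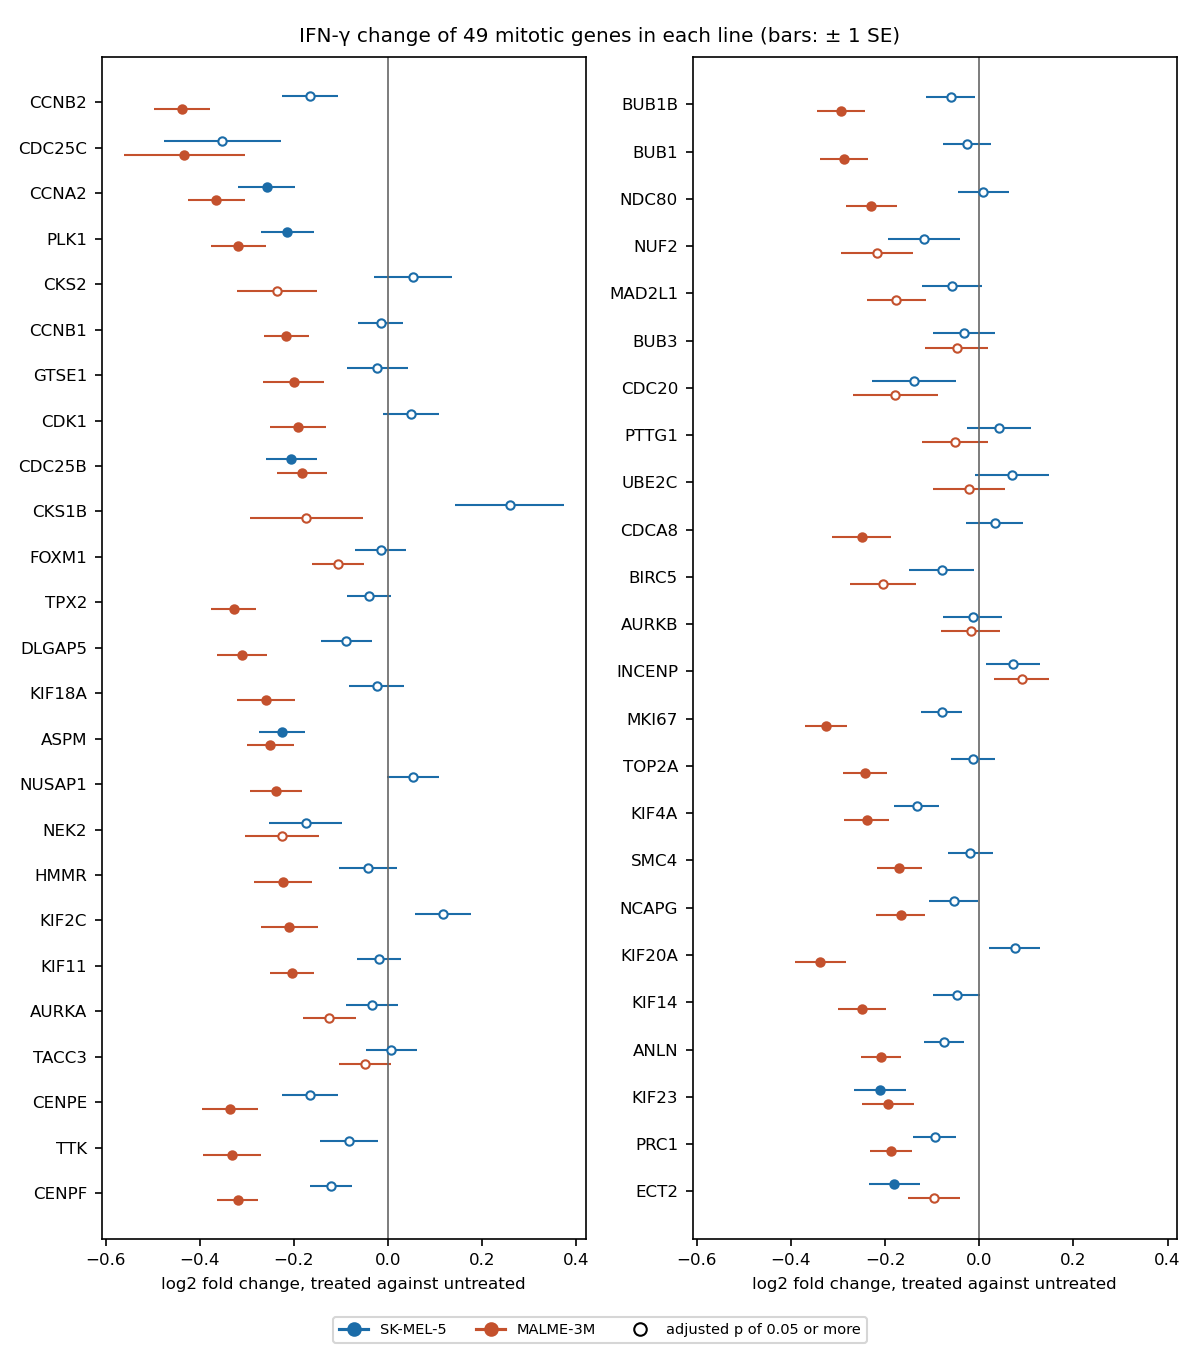
Log2 change with IFN-γ of 49 of the 50 genes in SK-MEL-5 (blue) and MALME-3M (orange), ordered by role and then by the change in MALME-3M. Filled points have an adjusted p below 0.05 by edgeR's quasi-likelihood test, open points do not, bars are 1 SE, and CENPA is left out for its low counts. All orange points but that of INCENP lie below 0, whereas blue points lie on both sides.

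Fewer of these genes passed the test in SK-MEL-5. Of the 50, 6 were lower and 0 higher by edgeR (12%), where 7.05% of all genes tested were lower and 5.98% higher. DESeq2 called 8 lower and 0 higher, where it called 1142 lower and 914 higher of the 34075 genes it fitted. The median log2 change was -0.04 for the 50 genes and -0.03 for all genes, 37 of the 50 were below 0 where 55.3% of all genes were, and in 14 the treated libraries lay below all untreated ones, against 17.4% of all genes. The median of the group was close to that of all genes in this line. The number below 0 was 28, with a median of -0.01, when only the 2 SK-MEL-5 groups were fitted, and 28 without replicate 1 or replicate 3 of treated MALME-3M. With transcript-level estimates it was 23 and the median turned to 0.02. By an unadjusted p below 0.05, 12 were lower and 1 higher, with no share of all genes counted at that threshold.

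The 6 genes that fell were CCNA2, CDC25B, PLK1, ASPM, KIF23 and ECT2. ASPM had 279, 299.7 and 287 CPM untreated and 253, 243 and 246 CPM treated, and fell by 14.4% (-0.23 ± 0.049, adjusted p = 0.00409). CCNA2 went from 75.3, 81.7 and 73.4 to 66.9, 65.6 and 60.1 CPM (-0.26 ± 0.061, adjusted p = 0.00736). Both are also among the genes that fell in MALME-3M. PLK1 went from 105, 106 and 95.8 to 86.2, 88.5 and 89.2 CPM (-0.21 ± 0.056, adjusted p = 0.0145), and CDC25B from 262, 270.0 and 263 to 234, 227 and 229 CPM (-0.21 ± 0.054, adjusted p = 0.0154). KIF23 went from 246, 256 and 256 to 223, 222 and 209.6 CPM (-0.21 ± 0.055, adjusted p = 0.0152), and ECT2 from 163, 160.0 and 146 to 137, 142 and 135 CPM (-0.18 ± 0.055, adjusted p = 0.0354). The groups did not overlap in any of the 6. Of these 6, 5 (83.3%) also passed in MALME-3M, where they were 15.2% of the genes that did, and ECT2 was the one that did not. The count rests on single libraries, since 1 gene passed without replicate 2 of untreated SK-MEL-5, 2 without replicate 3 of treated SK-MEL-5, and 0 with transcript-level estimates (of the 6, only ASPM passed in every setting on gene counts).

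Other genes that fell in MALME-3M did not pass the test in SK-MEL-5. CCNB2 had 101, 101 and 97.2 CPM untreated and 85.3, 90.0 and 91.0 CPM treated, which did not overlap but missed the threshold (-0.17 ± 0.060, adjusted p = 0.078). CENPF had 1408, 1454 and 1421 CPM untreated and 1375, 1294 and 1268 CPM treated, also without overlap (-0.12 ± 0.044, adjusted p = 0.0849), and ANLN had 359, 369.7 and 358 CPM untreated and 348, 341 and 343 CPM treated (-0.07 ± 0.043, adjusted p = 0.302). PRC1 had 209, 222 and 213 CPM untreated and 210.0, 199 and 195 CPM treated (-0.10 ± 0.045, adjusted p = 0.203), and KIF4A had 173, 177 and 179 CPM untreated and 161, 164 and 157 CPM treated (-0.13 ± 0.048, adjusted p = 0.0787). In PRC1 the groups overlapped, and in ANLN and KIF4A they did not. CDCA8 stood at 78.5, 76.9 and 71.8 CPM untreated and 80.5, 78.8 and 72.8 CPM treated (0.03 ± 0.061). The anaphase-promoting complex genes did not change past the test here either, with CDC20 at 37.4, 30.5 and 30.8 CPM untreated and 28.2, 33.0 and 28.2 CPM treated, UBE2C at 37.2, 32.6 and 31.0 CPM untreated and 32.4, 34.9 and 38.4 CPM treated, and PTTG1 at 59.8, 58.2 and 56.0 CPM untreated and 54.9, 64.1 and 60.2 CPM treated. INCENP, as in the other line, had a change above 0, at 393, 426 and 435 CPM untreated and 438, 451 and 428 CPM treated (0.07 ± 0.058, adjusted p = 0.501).

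**Figure D4:**
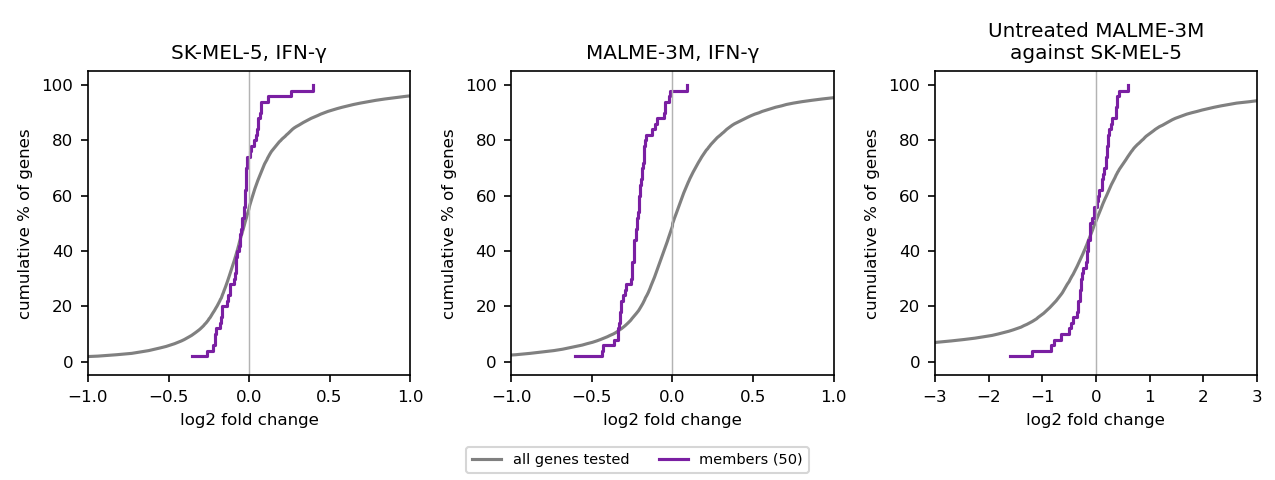
Cumulative percentage of genes against log2 change for the 50 genes (purple) and all 15810 genes tested (grey), in 3 panels: IFN-γ in SK-MEL-5, IFN-γ in MALME-3M, and the untreated lines, MALME-3M over SK-MEL-5 (wider x axis). In MALME-3M the purple curve lies left of the grey one around its median of -0.22, and in SK-MEL-5 both cross 50% close to 0.

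The difference between the lines was tested as the change in MALME-3M minus that in SK-MEL-5. Of the 50 genes, 6 were lower and 0 higher for this difference by edgeR (12%), where 1.79% of all genes tested were lower and 2.67% higher. At an unadjusted p below 0.05, 23 were lower and 0 higher, and no share of all genes was counted at that threshold. The difference was below 0 in 46 of the 50 genes, against 46% of all genes, and its median was -0.16 against 0.02 for all genes. The largest of the 6, KIF20A, had 105, 104 and 96.7 CPM in untreated and 109, 104 and 109 CPM in treated SK-MEL-5, where the ranges overlapped. In MALME-3M it fell, and the log2 changes differed by -0.41 ± 0.076 (adjusted p = 0.0027).

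The other 5 genes were TPX2, NUSAP1, KIF2C, BUB1 and MKI67. In SK-MEL-5, TPX2 had 444, 459 and 424 CPM untreated and 427, 444 and 419 CPM treated, a difference from the MALME-3M change of -0.29 ± 0.067 (adjusted p = 0.017). MKI67 had 1185, 1265 and 1242 CPM untreated and 1173, 1137 and 1182 CPM treated (-0.24 ± 0.062, adjusted p = 0.0296). KIF2C had 113, 121 and 106 CPM untreated and 116, 132 and 119.6 CPM treated (-0.33 ± 0.085, adjusted p = 0.0327). Except in MKI67, these SK-MEL-5 ranges overlapped. NUSAP1 had 211, 225 and 194 CPM untreated and 214, 227 and 213 CPM treated (-0.29 ± 0.078, adjusted p = 0.0373), and BUB1 had 138, 135 and 137 CPM untreated and 135, 129.5 and 138 CPM treated (-0.26 ± 0.072, adjusted p = 0.0445), again with overlap. The number that passed moved from 2 to 14 when single libraries were left out. It was 14 without replicate 1 of treated MALME-3M, 8 without its replicate 3, and 2 without its replicate 2. It was also 2 without replicates 1 or 3 of untreated or 2 or 3 of treated SK-MEL-5 or replicates 1 or 2 of untreated MALME-3M, and 3 without replicate 1 of treated SK-MEL-5. It was 13 with upper-quartile scaling, 11 with no scaling factors, 14 with DESeq2 and 1 with transcript-level estimates, all in the direction of a lower value in MALME-3M.

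**Figure D5:**
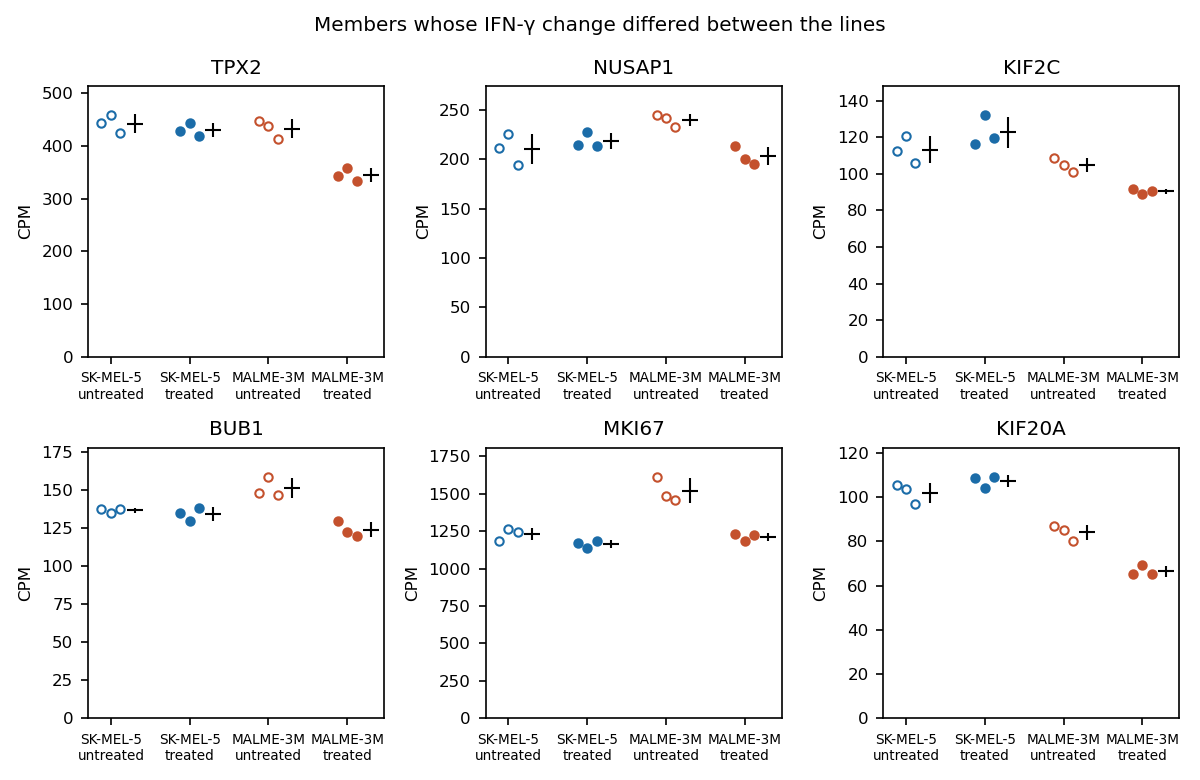
CPM of the 6 genes whose IFN-γ change differed between the lines, in each library (open points untreated, filled points treated, blue SK-MEL-5, orange MALME-3M), with the mean and SD of each group in black beside them. In all 6 panels the filled orange points lie below the open orange ones, for KIF20A at 65.1, 69.4 and 65.1 CPM against 86.8, 85.1 and 80.3 CPM.

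Without treatment, most of these genes differed between the lines by less than 2-fold. Of the 50 genes, 20 were lower and 15 higher in MALME-3M (70.0%), close to the background of 71.7% of all genes (37.2% lower and 34.5% higher), so the count says nothing particular about them. For the sizes, no comparison at matched levels was made: 49 of the 50 lay at or above 7.94 CPM, as did 9761 of all 15810 genes tested. The median absolute log2 difference was 0.24, against 0.62 for all genes, and 2 of the 50 (4.0%) differed over 2-fold, against 34.7% of all genes. BIRC5 had 318, 275 and 255 CPM in SK-MEL-5 and the lower MALME-3M levels given above, a log2 difference of -1.60 ± 0.071 (adjusted p = 1.82e-13). PLK1 was the other, at -1.19 ± 0.058 (adjusted p = 7.45e-13). The libraries of the 2 lines did not overlap for either gene.

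Smaller differences ran in both directions. TACC3 had 149.7, 166 and 150.4 CPM in untreated SK-MEL-5 and 158, 156 and 155 CPM after treatment, and its untreated level was lower in MALME-3M, at -0.84 ± 0.055 (adjusted p = 7.25e-11). KIF18A and ASPM were also lower, at -0.79 and -0.65, as were KIF4A (-0.46), PTTG1 (-0.49) and CENPF (-0.27). UBE2C was higher in MALME-3M by 0.59 ± 0.078 (adjusted p = 1.34e-06), and so were PRC1 (0.42), CCNB2 (0.39), CDC25B (0.38) and MKI67 (0.30). All 4 passenger complex genes were lower in MALME-3M, where 37.2% of all genes were, with BIRC5 the extreme. For AURKB (-0.14) and INCENP (-0.18) the untreated libraries of the lines overlapped. AURKB lay at the threshold by edgeR's test (adjusted p = 0.05 when rounded), and INCENP lost the call in 2 of 20 alternative settings. BIRC5 had 254, 284 and 264 CPM in treated SK-MEL-5, where its change with IFN-γ did not pass (-0.08 ± 0.068, adjusted p = 0.533).

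Per kilobase of annotated exon, the highest mean levels over the 12 libraries belonged to CKS2 (125 CPM per kb), TPX2 (114), TOP2A (112), CENPF (104) and MKI67 (100.1), and the lowest to CDC25C (2.38) and CENPA (0.647). On that scale a short CDK subunit thus ranked above the much longer chromosome scaffold genes that lead by CPM. The last place of CENPA depends on the counting. Over the 12 libraries it had 291 gene counts and 3146.5 estimated transcript counts, where CDC25C had 1779 and 530.4.

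Other genes of mitosis, on lists outside the 50, are to be read against the shares of all genes tested, 8.77% lower and 9.51% higher in MALME-3M and 7.05% lower and 5.98% higher in SK-MEL-5. Of 35 other spindle and cytokinesis genes tested, 15 (42.9%) were lower in MALME-3M, and 1 was lower and 2 were higher in SK-MEL-5. CKAP2L (-0.40) and ARHGAP11A (-0.33) had the smallest adjusted p in MALME-3M. Of 34 other kinetochore and centromere genes, 8 (23.5%) were lower in MALME-3M, led by the kinetochore scaffold KNL1 (-0.27) and SKA2 (-0.29), and 2 (5.88%) were lower in SK-MEL-5, near the share of all genes. Of 15 condensin and cohesin genes, 5 (33.3%) were lower in each line, led in MALME-3M by the cohesin subunits STAG2 (-0.31) and RAD21 (-0.26). Of 18 subunits and regulators of the anaphase-promoting complex, 1 (5.56%) was lower in MALME-3M, near the share of all genes, ANAPC1 (-0.16), and 4 (22.2%) were lower in SK-MEL-5, while FBXO5, its inhibitor, had -0.18 in MALME-3M and did not pass there.

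The counts for regulators and S phase genes were small, and in MALME-3M those for entry regulators, transcription factors and S phase genes lay near the shares of all genes (8.77% lower and 9.51% higher). Of 17 regulators of mitotic entry, 2 (11.8%) were lower and 2 higher in MALME-3M, among them WEE1, the kinase that holds CDK1 inactive, at -0.40 ± 0.068 (adjusted p = 0.000277), and CDK2 at -0.23. In SK-MEL-5, 0 passed by edgeR, where 3 were lower and 0 higher at an unadjusted p below 0.05, with no share of all genes counted at that threshold. Of 22 DREAM, MYB-MuvB and NF-Y factors, 3 (13.6%) were lower and 2 higher in MALME-3M, and 1 was lower and 1 higher in SK-MEL-5. MYBL2, the B-MYB activator of the gene wave, had -0.36 ± 0.059 in MALME-3M (adjusted p = 0.000214) and -0.25 ± 0.058 in SK-MEL-5 (adjusted p = 0.00756), and the repressor E2F7 rose in both, by 0.25 and 0.20. Of 12 CDK inhibitors and p53 arrest targets, 4 (33.3%) were lower and 1 higher in MALME-3M, and 2 were lower and 2 higher in SK-MEL-5. GADD45B, a stress-induced gene, rose by 1.30 in MALME-3M and 1.19 in SK-MEL-5, while GADD45A was lower, at -0.61 and -0.34. Of 25 S phase genes, 2 (8%) were lower in each line, near the shares of all genes. In MALME-3M they were RRM1 (-0.32) and TYMS (-0.24), both enzymes of nucleotide synthesis.

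Some of the 50 genes are less certain than their errors show. The annotation places another gene over 29 of them, and whether the counting used strand is not given in the sources used here, so reads of overlapping genes may be mixed. CENPA overlaps SLC35F6 on the same strand, and had 71 and 88 gene counts in untreated and treated SK-MEL-5 and 74 and 58 in MALME-3M, where the transcript estimates were 869, 894, 609 and 775. KIF11, conversely, had 8129, 7503, 8494 and 8480 gene counts in the same order and 123, 0, 185 and 140 estimated transcript counts. KIF4A has a near-identical copy, KIF4B, and CKS1B, UBE2C and others have pseudogenes, so reads could be split between them. PTTG2 had 6 counts where PTTG1 had 11147.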

How the data were processed

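The members and gene lists were chosen with earlier results of these data known. The authors deposited whole-number read counts per gene and, for each transcript, estimated counts, per the file headers, in 1 pair of tables for each of the 12 libraries. Tools named in the submitters' processing notes are HTSeq, STAR, kallisto, cutadapt and SAMtools, with hg38 as the build. For the annotation and strand setting of the counting the sources used here say nothing. Summary lines (5) were left out. Gene counts were fitted in all 12 libraries with edgeR 4.0.16 (R 4.3.3; quasi-likelihood test, 1 mean per group, minimum count 10 in filterByExpr, TMM scaling, 8 residual degrees of freedom), and p-values were adjusted by Benjamini-Hochberg over 15810 genes, with 0.05 as threshold. The script was tested on counts simulated from untreated MALME-3M levels, with changes put into the treated MALME-3M libraries. Of 50 genes each, 3 passed in the right direction at a true absolute log2 change of 0.25, 35 at 0.5, and 50 at 1 and at 2. Of 14313 genes in that step, 8 passed without a true change. Changes near 0.25 were thus mostly missed in the simulation. It changed only 200 genes, whereas 1386 lower and 1504 higher passed with IFN-γ in MALME-3M, so its adjustment was stricter. The share found there does not carry over to the 50 genes, of which those that passed in MALME-3M had a median log2 change of -0.25. A gene that did not pass may still have changed. CPM are counts per 1000000 of the TMM-scaled library, and an SE is the log2 change divided by the square root of F. Transcript estimates were summed per gene and rounded. DESeq2 1.42.0 was an alternative, beside other scalings, no filter, only the compared groups, no assembled loci, transcript estimates and leaving out each library. Positions came from GENCODE 29. Values in every library are printed, for each role group, for the member with the highest mean CPM, the smallest adjusted p with IFN-γ in MALME-3M and the smallest between untreated lines, and for members called with IFN-γ in SK-MEL-5 or for the difference. Of other lists, the genes with the 2 smallest adjusted p in MALME-3M are named.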

Additional observations from a re-analysis of the deposited data

Results flagged for a closer look

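For 6 of the 50 mitotic genes the log2 change with IFN-γ differed between the lines by edgeR's test of the difference itself (MALME-3M minus SK-MEL-5). The differences were -0.29 for TPX2, -0.29 for NUSAP1, -0.33 for KIF2C, -0.26 for BUB1, -0.24 for MKI67 and -0.41 for KIF20A. Over all genes tested, 1.79% were lower and 2.67% higher for this difference. Of 19 alternative settings, BUB1 lost the call in 12, NUSAP1 in 10, KIF2C in 8, MKI67 in 5, TPX2 in 4 and KIF20A in 1. The dose and the medium differ with the line and cannot be told apart from it.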

How the results depend on the processing

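No paired analysis was possible because the labels give no replicate numbers, and the numbers used here only name the libraries of a group. With transcript-level estimates, the number of the 50 genes lower with IFN-γ was 0 in SK-MEL-5 and 12 in MALME-3M, and 1 for the difference between the lines. That difference gave 13 genes with upper-quartile scaling, 11 with no scaling factors and 14 with DESeq2, against 6. Leaving out single libraries gave 1 to 6 genes lower in SK-MEL-5, 28 to 35 in MALME-3M and 2 to 14 for the difference. ECT2 changed direction with transcript-level estimates, to 0.085 (adjusted p = 0.699) with IFN-γ in SK-MEL-5 and 0.27 (adjusted p = 0.0113) between the untreated lines. Of the genes printed by library, 8 of 17 that passed in MALME-3M did so in every alternative and 6 more lost it only with transcript-level estimates, while 0 of 6 in SK-MEL-5 and 0 of 6 for the difference held throughout. KIF20A lost its difference only with transcript-level estimates (adjusted p = 0.146). The transcript estimates were 1.37% to 1081.27% of the gene counts of the 50 genes (median 46.85%), and the cause was not tested.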

Other observations

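Further genes on the lists outside the 50 are named here after their values were seen. Among the other spindle and cytokinesis genes, FAM83D, which anchors a kinase to the spindle, rose in SK-MEL-5 by 0.44 ± 0.060 on the log2 scale (adjusted p = 3.65e-05) and PSRC1 by 0.34 ± 0.097 (adjusted p = 0.0233), while their values in MALME-3M, -0.09 and 0.13, did not pass. In MALME-3M the checkpoint kinase CHEK2 (0.26), the phosphatase subunit PPP2R2A (0.20) and the transcription factor E2F1 (0.35) rose, while NFYB (-0.26), a subunit of NF-Y, and RBBP4 (-0.15) fell. CDKN1B, the CDK inhibitor p27, rose in SK-MEL-5 by 0.27 (adjusted p = 0.0176), and CDKN1A, the inhibitor p21, had -0.19 ± 0.068 in MALME-3M (adjusted p = 0.0658), which did not pass. ZMAT3, a p53 target, fell in both lines, by 0.52 in SK-MEL-5 and 0.35 in MALME-3M.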
